A study of Mus musculus with 12 samples.

Results

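Genes of liver glycolysis and pyruvate handling were followed in RNA-seq libraries from 12 mouse livers. The 9 genes were taken by symbol, after the Ensembl identifiers of the deposited table had been matched to gene names, and all 9 of them were among its 16346 genes. They are *Gckr*, *Pfkfb1* and *Pfkfb3*, which act on the regulated steps; *Pfkl*, *Gapdh*, *Pgk1*, *Eno1* and *Pklr*, which encode enzymes of the pathway; and *Pdk2*, which acts on the use of pyruvate. The livers came from C57BL6J mice aged 12 weeks in 6 groups of 2 mice. Control mice carried the floxed *Med13* allele on both chromosomes (Med13 fl/fl) without Cre, and MED13-LKO mice carried the same allele with Cre driven by the albumin promoter (Alb-Cre), which is active in hepatocytes and leaves the other cells of the liver with the floxed gene. Mice of each genotype were fasted for 16 h, or were fed again for 4 h with normal chow and drinking water that contained 30% sucrose or 30% fructose. *Med13* encodes the subunit that joins the kinase module to the Mediator complex. The study asked how this module bears on the genes that nutrients regulate in the liver.

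Glycolysis splits glucose into pyruvate, and in the liver it runs after a meal, while the fasted liver makes glucose instead. Its pace is set where phosphofructokinase acts, which fructose 2,6-bisphosphate activates, and where pyruvate kinase forms pyruvate. Pyruvate then enters the mitochondria, where the pyruvate dehydrogenase complex converts it to acetyl-CoA unless pyruvate dehydrogenase kinases have switched that complex off. Transcription of liver pyruvate kinase is known to respond to carbohydrate through the factor ChREBP, which binds a carbohydrate response element in the promoter.

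The values are normalized counts, which the authors obtained from estimated transcript counts, and their sums (21060000 to 24150000 per control library and 17310000 to 18740000 per library labelled MED13-LKO) are not read totals. Differences were tested with limma on log2(normalized count + 1) in 1 fit of all libraries and 12366 genes, and a gene is said to have risen or fallen where its p-value, adjusted over these genes by the method of Benjamini and Hochberg, was under 0.05. All 9 genes passed the filter, a mean of at least 10. *Med13* itself read 646 to 1055 under the MED13-LKO label and 578 to 796 in controls, so the targeted gene showed no fall there (log2 difference 0.22 ± 0.11 SE over the diets, adjusted p = 0.201). With every library set to the same sum it was called higher there (0.532, adjusted p = 0.00342), but the median of all genes also moved up, by 0.314. By Western blotting, the study found MED13 protein almost wholly lost from livers of MED13-LKO mice. A value summed over a whole gene does not show whether its floxed part is present. Nothing in the sources used here says whether the mice of a group came from separate litters, so the p-values measure the spread between these samples only. Of the marker lists of 10 cell types, the 5 hepatocyte genes summed to 2360337 to 3021397 in control libraries and to 1766538 to 2123511 in those labelled MED13-LKO, and 5 of 5 passed the test between genotypes. The 6 erythroid genes summed to 8907 to 14906 and 5735 to 11173 in the same order, and 4 of the 5 tested passed. Of the other lists 1 of 6 Kupffer, 3 of 5 sinusoidal endothelial, 2 of 5 stellate and 1 of 4 cholangiocyte genes passed. Of the neutrophil, lymphocyte, skeletal muscle and adipocyte lists only 1 gene each had a mean high enough to be tested. Of these 0 passed, which says little about those cells, and over all genes tested 25.3% passed. In control and labelled libraries the Kupffer genes summed to 3528 to 4861 and 4450 to 5836, and the endothelial ones to 3036 to 3528 and 3471 to 4743. In the same order the stellate genes summed to 4884 to 6201 and 4496 to 5477, and the cholangiocyte ones to 666 to 876 and 534 to 849. Of the list genes in the table, 0 were at 0 in every library. Between fed and fasted livers of both genotypes 4 erythroid genes and 1 each of the hepatocyte, sinusoidal endothelial and stellate genes passed. Of the other lists 0 genes did, and over all genes tested 21.8% passed. The marker calls hold relative to the authors' scaling, and the library sums given above also differ between the genotypes. Fewer cells of a type and less RNA per cell cannot be told apart in whole liver, nor can either be told apart from the scaling. The part of these markers in the results below was not tested.

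Of the 8 genes with no zeros *Pklr* had the highest ratio of its highest to its lowest normalized count, 12.5 (18792 against 1502). The sequence before the second of its 2 start sites is shown because, alone among the promoters of the 9 genes, it holds the pattern of a carbohydrate response element. It is taken from the RefSeq promoter table (GRCm38.p6, chr3:89136373-89136571, plus strand), it lies inside the annotated gene, in an intron of the transcripts that start at the first site, and it ends just before the first exon of those that start at the second. The capitals mark the match to the carbohydrate response element pattern.
Pklr promoter: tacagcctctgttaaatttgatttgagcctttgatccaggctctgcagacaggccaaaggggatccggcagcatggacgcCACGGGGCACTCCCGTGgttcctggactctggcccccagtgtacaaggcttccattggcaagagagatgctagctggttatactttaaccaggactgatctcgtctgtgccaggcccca

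The pattern searched was CACGNG, then 5 bases of any kind, then CNCGTG, on both strands in the 250 bases before each start site. It was found in 13 of 32817 promoter windows (0.0396%), and among the 17 windows of the 9 genes it was found in the one of *Pklr* shown, from 170 to 154 bases before the RefSeq start. The shorter E-box, CACGTG, which this pattern need not contain, was found in 6.02% of all windows and in 2 windows of the 9 genes, 1 of *Pdk2* and 1 of *Pfkfb3*. These matches are shown in capitals with 6 bases on either side, read on the minus strand of each gene at chr11:95041492-95041497 and chr2:11502138-11502143.
Pdk2 E-box: gagagcCACGTGtcgaag
Pfkfb3 E-box: tctctcCACGTGaaaggg

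The sterol response element pattern TCACNCCAC was found in 1.05% of all windows and in 0 windows of the 9 genes. A match is a description of letters in a window, and binding was not measured in these files.

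In normalized counts per kilobase of the longest transcript, the mean over control libraries was highest for *Gapdh* at 8540 and *Eno1* at 7570, followed by *Pgk1* at 4920 and *Pklr* at 3110. *Pdk2* had 552, *Pfkfb1* 277, *Pfkl* 178 and *Pfkfb3* 134, and *Gckr* came last at 5.25. Across the control libraries the per-kilobase ranges of *Gapdh* (7460 to 10300) and *Eno1* (5620 to 9480) overlapped, as did those of *Pgk1* (4590 to 5070) and *Pklr* (867 to 6480), of *Pfkfb1* (219 to 323) and *Pfkl* (154 to 223), and of *Pfkl* and *Pfkfb3* (87.4 to 188). The other neighbours in this order did not overlap. The order and the overlaps depend on the length used: the longest transcript of *Gapdh* has 3289 bases and the next longest 1420. Which transcripts were present was not tested.

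**Figure D1:**
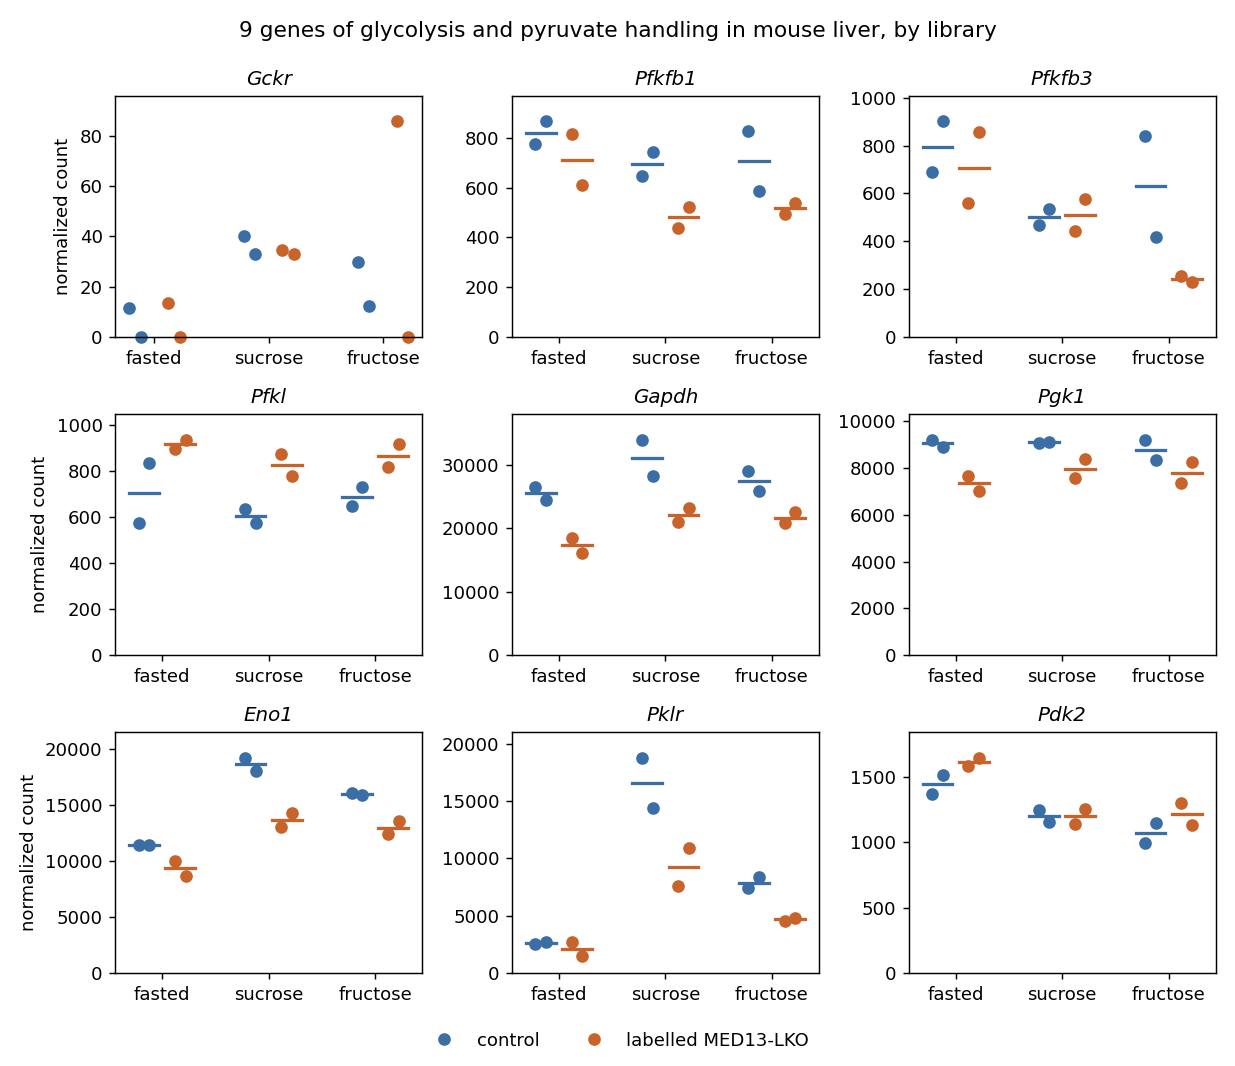
Normalized counts (y axes, from 0) of the 9 genes in each of the 12 libraries, by diet (x axes) and genotype (colour); points are mice and bars are means of 2 mice, left out for Gckr because it is listed at 0 in 3 libraries. Pklr and Eno1 are higher in every fed library than in any fasted one, and Gapdh is lower in every library labelled MED13-LKO than in any control. The shares of all genes separated in these ways were not counted.

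Feeding was compared with fasting within each genotype and over both. None of the 6 groups was fed chow with plain water, so the sugar and the chow cannot be told apart. By the paper's methods fasted mice were killed at an earlier hour of the day than fed ones. Feeding and time of day thus cannot be told apart either. With sucrose, 2 of the 9 genes rose in control livers and 0 fell, where 8.57% of all genes passed the test (4.85% higher and 3.72% lower). With fructose, 2 rose and 1 fell in control livers, where 5.6% of all genes passed (2.79% higher, 2.81% lower). In livers labelled MED13-LKO 2 rose and 1 fell with sucrose, where 5.71% of all genes passed (2.23% higher, 3.48% lower). With fructose 2 rose and 2 fell there, where 6.53% passed (2.94% higher, 3.58% lower). In each of these 4 comparisons the genes that rose were *Pklr* and *Eno1*. Over both sugars and both genotypes 3 rose (*Pklr*, *Eno1* and *Gapdh*), 3 fell (*Pfkfb3*, *Pdk2* and *Pfkfb1*) and 3 did not pass (*Gckr*, *Pfkl* and *Pgk1*), against 21.8% of all genes (10.7% higher, 11% lower). The median log2 fold change of the 9 genes was 0.04 in that comparison and −0.01 over all genes tested. The fasted libraries are shared between these comparisons, so they are not independent of each other. Where groups of 2 mice are said not to overlap, this only describes their values. With so few mice it is common without any change, and its share over all genes was not counted. Nor was that share counted where all fed livers lay apart from all fasted ones, or 1 genotype lay apart from the other.

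*Gckr* encodes the glucokinase regulatory protein, which holds its target enzyme inactive in the nucleus of the fasted hepatocyte. Its normalized counts were very low for a liver gene. The fasted controls had 11 and 0, those fed sucrose 40 and 33 and those fed fructose 30 and 12, while the libraries labelled MED13-LKO had 13 and 0, 34 and 33, and 86 and 0. It was thus listed at 0 in 3 libraries, 1 of them from a mouse fed fructose whose group mate had the highest value of all. It passed the test in 0 of the 13 comparisons (adjusted p from 0.145 to 0.991), and no fold change is interpreted because of the zeros. The gene (chromosome 5, 31297443 to 31327314 in GRCm38) has 7 annotated transcripts, and 0% of their 31-base subsequences occur elsewhere in the annotation.

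*Pfkfb1* and *Pfkfb3* encode enzymes that make and remove fructose 2,6-bisphosphate, the activator of phosphofructokinase. The product of *Pfkfb1* is the liver form, in which one protein carries both activities, and that of *Pfkfb3* is an inducible form that mainly makes the activator. *Pfkfb1* read 777 and 867 in fasted control livers, 648 and 745 with sucrose and 828 and 588 with fructose. Under the MED13-LKO label the fasted read 815 and 610, the sucrose-fed 439 and 524 and the fructose-fed 494 and 540. The fed livers labelled MED13-LKO and the controls fed sucrose thus lay below both of their fasted mates, and the controls fed fructose overlapped theirs. Over both genotypes *Pfkfb1* fell by 22.6% (log2 fold change −0.37 ± 0.11 SE, adjusted p = 0.0423), a call that was lost without any of 7 libraries (both fasted controls, the first control fed sucrose, and the first fasted, the first sucrose and both fructose libraries labelled MED13-LKO; adjusted p up to 0.174). It was also lost with no filter on low values, with equal 75th percentiles, with the replicate number added as a block and with every library set to the same sum (adjusted p = 0.0503, 0.0562, 0.0572 and 0.0849). *Pfkfb1* passed the test in neither genotype with either sugar alone, where the smallest adjusted p was 0.115.

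*Pfkfb3* showed its lowest values in one group. Among controls the fasted livers had 688 and 901, the sucrose-fed 468 and 534 and the fructose-fed 842 and 419. Under the MED13-LKO label the fasted had 559 and 857, the sucrose-fed 443 and 578, and the fructose-fed 254 and 230, the lowest values of all 12 libraries. In that group it fell by 64.9% from the fasted state (log2 fold change −1.51 ± 0.31 SE, adjusted p = 0.0205). The call was lost without the second fasted library or either fructose library of that genotype (adjusted p up to 0.155). In the other 3 feeding comparisons its log2 fold changes were −0.65, −0.41 and −0.45 and did not pass (adjusted p = 0.219, 0.467 and 0.448, for sucrose and fructose in control livers and sucrose in livers labelled MED13-LKO). Over both genotypes it fell by 0.76 ± 0.19 (adjusted p = 0.0177), and without the second fasted library of either genotype this was no longer called (adjusted p up to 0.0853).

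*Pfkl*, the liver subunit of phosphofructokinase, catalyses the committed step. Its values were 573 and 834 in fasted, 634 and 574 in sucrose-fed and 646 and 728 in fructose-fed controls. Livers labelled MED13-LKO had 895 and 936 when fasted, 875 and 777 after sucrose and 815 and 915 after fructose. Fed and fasted livers overlapped in the controls, and its log2 difference over both genotypes was −0.11 (95% interval −0.33 to 0.11, adjusted p = 0.456).

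*Gapdh* and *Pgk1* encode the enzymes of the next steps, glyceraldehyde 3-phosphate dehydrogenase and phosphoglycerate kinase, which together yield the first ATP of the pathway. *Gapdh* had 26583 and 24555 in fasted control livers, 34051 and 28319 with sucrose and 29034 and 25912 with fructose. Livers labelled MED13-LKO had 18515 and 16155, 21030 and 23158, and 20788 and 22644. Within each genotype the sucrose livers lay above the fasted ones, but in no single feeding comparison did *Gapdh* pass the test (adjusted p from 0.115 to 0.647). Over both genotypes it rose by 0.27 ± 0.07 (SE) on the log2 scale, a 20.2% increase (adjusted p = 0.0251), which was no longer called without either fasted control or the second fasted, sucrose or fructose library labelled MED13-LKO (adjusted p up to 0.115). *Pgk1* ran from 7021 to 9224 over the 12 libraries, the lowest ratio of highest to lowest (1.31) among the 8 genes with no zeros, and differed by 0.04 between fed and fasted livers (95% interval −0.08 to 0.16, adjusted p = 0.62).

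*Eno1* encodes enolase 1, which forms phosphoenolpyruvate. It stood at 11450 and 11402 in fasted control livers, 19252 and 18024 with sucrose and 16076 and 15919 with fructose. Under the MED13-LKO label it stood at 10044 and 8666, 13015 and 14275, and 12400 and 13559. All 8 fed livers lay above all 4 fasted ones. It rose by 0.71 ± 0.09 (SE) with sucrose in control livers, or 1.63-fold (adjusted p = 0.00172), and by 0.49 ± 0.09, or 1.4-fold, with fructose (adjusted p = 0.0167). In livers labelled MED13-LKO the log2 increases were 0.55 ± 0.09 with sucrose (adjusted p = 0.00913) and 0.47 ± 0.09 with fructose (adjusted p = 0.0172). The call with fructose in control livers was lost without either fasted control or the first library fed fructose (adjusted p up to 0.111) and with only the compared groups in the fit (0.114). Those in livers labelled MED13-LKO were lost without the second fasted library or the second fed library of the pair (adjusted p up to 0.0915 with sucrose and 0.155 with fructose), and with only the compared groups for fructose (0.069).

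*Pklr* encodes pyruvate kinase of liver and red cells, the last enzyme of the pathway. Among controls the fasted livers had 2516 and 2675, the sucrose-fed 18792 and 14368 and the fructose-fed 7397 and 8376. Livers labelled MED13-LKO had 2695 and 1502, 7582 and 10864, and 4558 and 4808. The 3 diets did not overlap within either genotype, and the order was sucrose, fructose, fasted in both. With sucrose *Pklr* rose by 2.66 ± 0.25 (SE) on the log2 scale in control livers, or 6.33-fold (adjusted p = 0.000431), and by 2.17 ± 0.25, or 4.51-fold, in livers labelled MED13-LKO (adjusted p = 0.00181). With fructose it rose by 1.60 ± 0.25, or 3.03-fold, in control livers (adjusted p = 0.00733) and by 1.22 ± 0.25, or 2.33-fold, in livers labelled MED13-LKO (adjusted p = 0.0218). Both fructose calls rest in part on single mice. That in controls was lost without the second fasted library (adjusted p = 0.0546), and that in livers labelled MED13-LKO was lost without the second fasted library, where the rise was 0.80, or without either fructose library (up to 0.155) and with only the compared groups in the fit (0.0631). The erythroid genes, whose cells also use *Pklr*, summed to 10098 to 14906 in fasted and 5735 to 12282 in fed livers.

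*Pdk2* encodes a pyruvate dehydrogenase kinase, which switches the pyruvate dehydrogenase complex off. It read 1374 and 1515 in fasted control livers, 1250 and 1158 with sucrose and 993 and 1145 with fructose, and 1584 and 1650, 1142 and 1256, and 1301 and 1134 in livers labelled MED13-LKO. All 8 fed livers lay below all 4 fasted ones. Over both genotypes *Pdk2* fell by 23.4% (log2 fold change −0.39 ± 0.06 SE, adjusted p = 0.00273), and this call was kept without any 1 library (adjusted p from 0.00166 to 0.0199). The falls of 0.44 with fructose in controls, and of 0.43 with sucrose and 0.41 with fructose in livers labelled MED13-LKO, lay near the threshold (adjusted p = 0.043, 0.043 and 0.0477). Each was lost on leaving out any of 8 or 9 of the 12 libraries, among them all fasted and all sucrose-fed ones (adjusted p up to 0.312). The first was kept without the second fructose control or either fructose library labelled MED13-LKO, the second without any of the 4 fructose libraries, and the third without either fructose control or the first fructose library labelled MED13-LKO. Testing every gene of the table, without the minimum mean, ended all 3 as well (adjusted p from 0.0502 to 0.0576), as did the replicate number as a block (0.0586 to 0.0648) and equal sums (0.103 to 0.137). With equal sums the median of all genes moved up by 0.106 between fed and fasted livers over both genotypes.

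**Figure D2:**
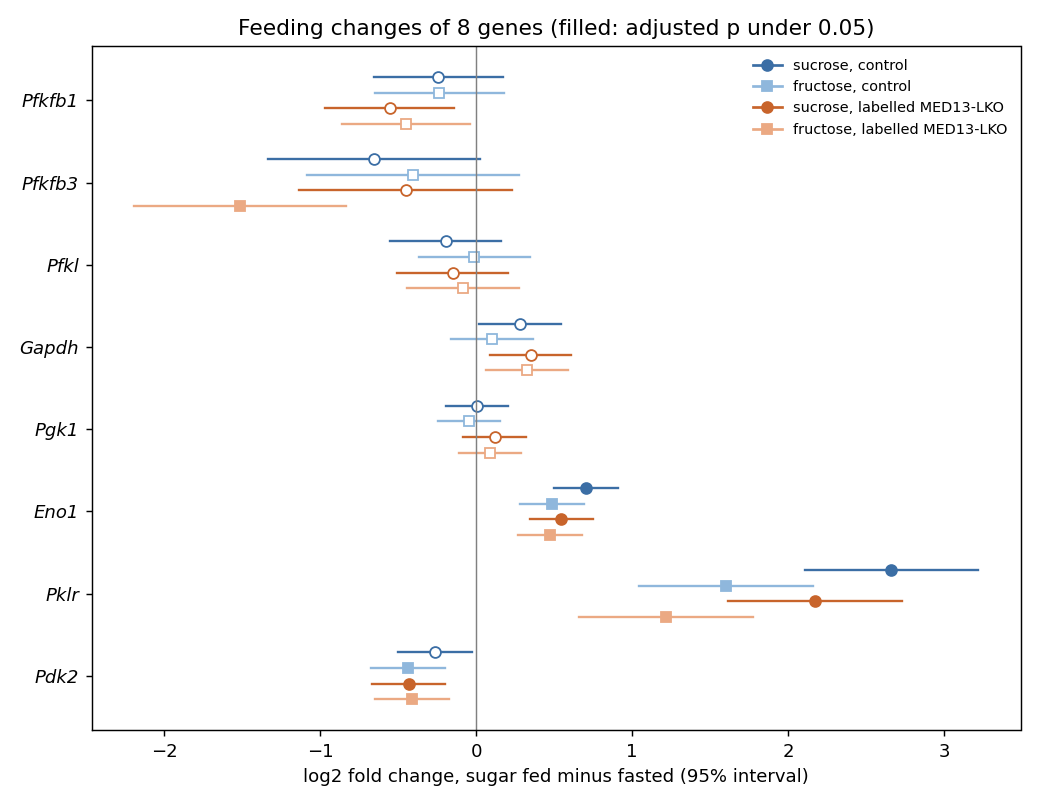
Log2 fold change of sugar fed against fasted livers (x axis) for 8 genes (y axis; Gckr is left out for its zeros), for each sugar and genotype by colour; points are estimates from limma, lines 95% intervals, and filled points passed the test. Pklr has the largest changes, from 1.22 to 2.66, Eno1 lies from 0.47 to 0.71, and Pfkfb3 in fructose-fed livers labelled MED13-LKO has the lowest, −1.51.

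The sugars were then compared with each other. Fructose against sucrose gave 0 called genes of 9 in either genotype, where 0.0404% of all genes passed in each, and limma without adjustment gave 2 of 9 in each at p under 0.05 (1061 and 951 of all genes). *Pklr* was the member with the lowest unadjusted p in both. It was lower with fructose by 1.06 ± 0.25 (SE) on the log2 scale in control livers (95% interval −1.62 to −0.50, adjusted p = 0.277) and by 0.95 ± 0.25 in livers labelled MED13-LKO (−1.51 to −0.40, adjusted p = 0.343), and the 2 sugars did not overlap in either genotype. The other was *Eno1* in control livers (difference −0.22, adjusted p = 0.548) and *Pfkfb3* in livers labelled MED13-LKO (difference −1.06, adjusted p = 0.41). For *Pgk1* the interval of the difference ran from −0.25 to 0.15 in control livers.

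The genotypes were compared at each diet and over the diets. Where the livers were fasted, 0 of the 9 genes rose and 1 fell in the libraries labelled MED13-LKO, where 8.98% of all genes passed (4.12% higher, 4.86% lower). With sucrose 0 rose and 2 fell, against 6.03% of all genes (2.7% higher, 3.33% lower). With fructose 0 rose and 1 fell, against 7.69% (3.74% higher, 3.95% lower). Over the 3 diets *Pfkl* rose and *Gapdh*, *Pgk1*, *Eno1*, *Pklr* and *Pfkfb1* fell, 6 of 9, where 25.3% of all genes passed (12.1% higher, 13.2% lower). The median log2 difference of the 9 genes was −0.37, against 0.01 over all genes tested. That median is the value of *Gckr*, which has zeros, and the values on either side of it were −0.39 (*Pfkfb1*) and −0.35 (*Eno1*). The directions over the diets hold relative to the authors' scaling. With every library set to the same sum, the median of all genes moved up by 0.314. Of the 6 calls only that of *Pfkl* was kept, *Pdk2* was called higher, and the sign of *Pgk1* turned (0.0947, adjusted p = 0.115). That shift goes against the falls and with the rise of *Pfkl*, so it could hardly have ended the rise. Rescaling moves all genes of a library alike, so differences measured from the median gene do not depend on it by construction. They were −0.66 for *Pklr*, −0.47 for *Gapdh*, −0.40 for *Pfkfb1*, −0.35 for *Eno1*, −0.23 for *Pgk1* and 0.39 for *Pfkl*.

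*Pfkl* was higher in livers labelled MED13-LKO at every diet, by 0.41, 0.45 and 0.33 on the log2 scale when fasted, with sucrose and with fructose. None of the 3 differences passed the test alone (adjusted p = 0.146, 0.139 and 0.249), and the genotypes did not overlap at any diet. Over the diets the rise was 0.40 ± 0.09 (SE), or 31.6% (adjusted p = 0.0115), and with equal sums it was 0.712 (adjusted p = 0.000265). With equal sums the difference also passed at each diet, at 0.748, 0.736 and 0.653 (adjusted p = 0.00918, 0.0173 and 0.0193). The median of all genes moved up there too, by 0.34, 0.283 and 0.319.

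*Gapdh* was lower in all 6 livers labelled MED13-LKO (16155 to 23158) than in all 6 controls (24555 to 34051). The share of all genes separated in this way was not counted. *Gapdh* fell by 0.56 ± 0.12 (SE) when fasted (adjusted p = 0.0171) and by 0.49 ± 0.12 with sucrose (adjusted p = 0.0367), and was lower by 0.34 with fructose (adjusted p = 0.114). Over the diets it fell by 27.5% (log2 difference −0.46 ± 0.07 SE, adjusted p = 0.000948; 0.0842 with equal sums). The call with sucrose was lost without either fasted control, the first control fed sucrose or either sucrose library labelled MED13-LKO (adjusted p up to 0.229), with equal 75th percentiles (0.0541), with equal sums (0.228) and with only the compared groups (0.0862). That in fasted livers was lost without either fasted control or the second fasted library labelled MED13-LKO (up to 0.124) and with equal sums (0.17).

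*Pgk1* fell by 0.22 ± 0.05 (SE) over the diets (adjusted p = 0.0114), and 5 of the 6 livers labelled MED13-LKO lay below every control. *Eno1* fell by 0.45 ± 0.09 with sucrose (adjusted p = 0.0197), and by 0.35 ± 0.05 over the diets (adjusted p = 0.00121; 0.62 with equal sums). Its differences in fasted and fructose-fed livers were −0.29 and −0.30 (adjusted p = 0.0766 and 0.0759), and the genotypes overlapped at none of the 3 diets. The sucrose call was lost without any of the 4 sucrose libraries (adjusted p up to 0.163), with only the compared groups (0.0568) and with equal sums (0.223). *Pfkfb1* fell by 0.39 ± 0.11 over the diets (adjusted p = 0.0224; 0.489 with equal sums), a call lost without the second fasted or second sucrose control, or without the second fasted, first sucrose or first fructose library labelled MED13-LKO (up to 0.0659).

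*Pklr* was lower on average in livers labelled MED13-LKO at each diet. The log2 differences were −0.37 when fasted (adjusted p = 0.397), −0.86 with sucrose (adjusted p = 0.0775) and −0.75 with fructose (adjusted p = 0.103, or 0.0471 with only the compared groups), and the genotypes overlapped in the fasted livers only. Over the diets *Pklr* fell by 36.6% (log2 difference −0.66 ± 0.14 SE, adjusted p = 0.00858; 0.0621 with equal sums).

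*Pfkfb3* fell by 59.2% in fructose-fed livers labelled MED13-LKO against their controls (log2 difference −1.29 ± 0.31 SE, adjusted p = 0.0316). The 2 controls were far apart, at 842 and 419, and without the first of them the difference was −0.79 and no longer called, nor was it called without either fructose library labelled MED13-LKO or with only the compared groups in the fit (adjusted p = 0.153, and up to 0.154 over the omissions). Fasted and sucrose-fed livers differed by −0.19 and 0.02 (adjusted p = 0.753 and 0.986), and the difference over the diets was −0.49 (adjusted p = 0.0704). *Pdk2* differed by 0.12 over the diets (95% interval −0.02 to 0.25, adjusted p = 0.2), and by 0.432 with equal sums (adjusted p = 0.000529), where it was also called in fasted and fructose-fed livers (0.507 and 0.509, adjusted p = 0.0101 and 0.0128).

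**Figure D3:**
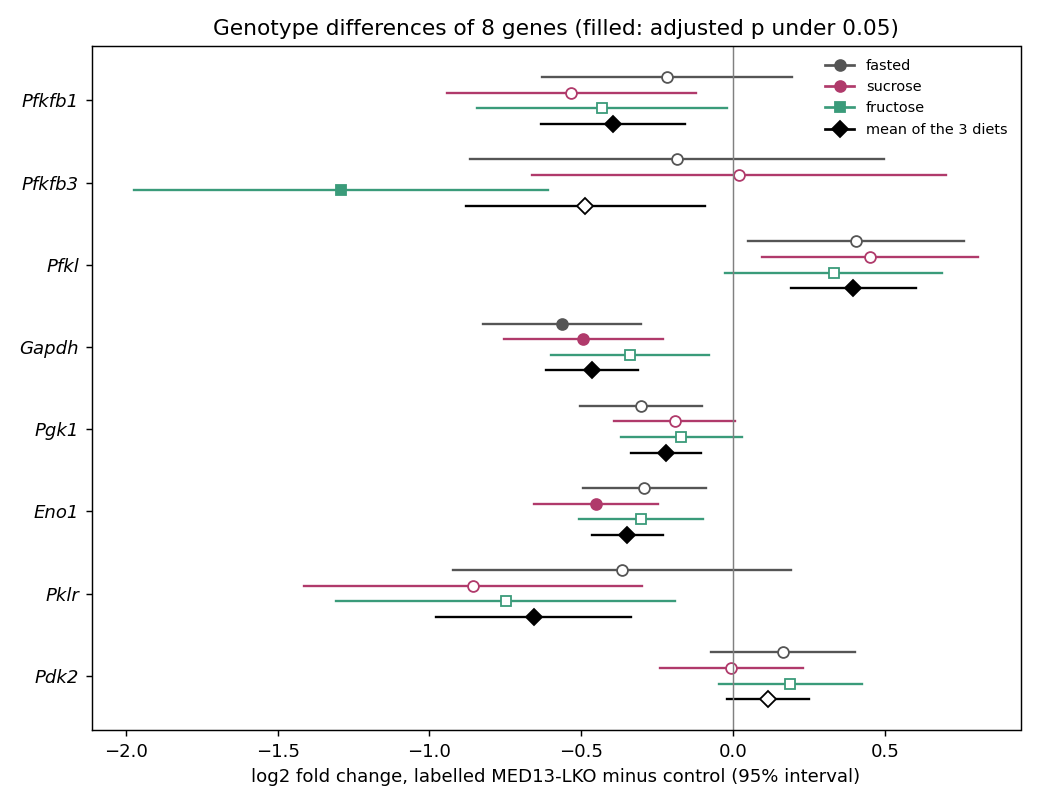
Log2 difference between libraries labelled MED13-LKO and controls (x axis) for 8 genes (y axis) at each diet and over the mean of the 3 diets; points are estimates from limma with the authors' scaling, lines 95% intervals, and filled points passed the test. Pfkl is the gene to the right of 0 at every diet, from 0.33 to 0.45, and Gapdh, Pgk1, Eno1, Pklr and Pfkfb1 lie to the left at every diet.

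**Figure D4:**
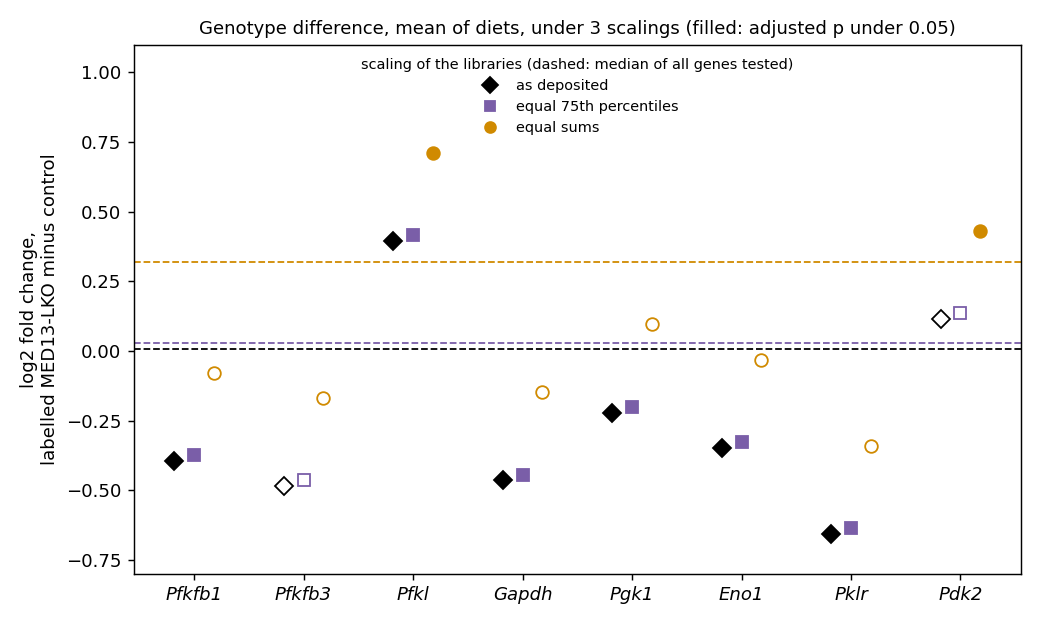
Log2 difference over the mean of diets (y axis) of 8 genes (x axis) with the values as deposited, with equal 75th percentiles and with equal sums; filled points passed the test and dashed lines mark the median of all genes tested. With equal sums the median lies at 0.32 and each gene shifts with it, so that Pfkl and Pdk2 are the filled points of that scaling.

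Whether feeding acted differently in the 2 genotypes was tested as an interaction. With sucrose 0 of 9 genes were called (0.146% of all genes), and limma without adjustment gave 0 of 9 at p under 0.05. With fructose 0 of 9 were called (0.0243% of all genes), and without adjustment 1 of 9, *Pfkfb3*, whose response differed by −1.11 ± 0.43 (SE, adjusted p = 0.476). Over all genes 1055 and 1170 had an unadjusted p under 0.05. For *Pklr* the interaction was −0.49 with sucrose (95% interval −1.28 to 0.30, adjusted p = 0.767) and −0.38 with fructose (−1.17 to 0.40, adjusted p = 0.772). A weaker rise in livers labelled MED13-LKO was thus not shown, and neither were equal rises.

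Some of these genes share sequence with others, which bears on what their values count. *Gapdh* (chromosome 6, 125161715 to 125166467) has 28.1% of its 31-base subsequences in other genes, and 25 copies of it are among the genes of the table. Their values summed to 1.25% to 7.3% of that of *Gapdh*, and 5 of the copies had a mean of at least 10 (*Gm7336*, *Gm13394*, *Gm10359*, *Gm12671* and *Gm3839*). Adding the copies to *Gapdh* changed no call. *Eno1* (chromosome 4, 150236721 to 150248879) shares 28.5%, and its 2 copies held at most 0.127% of its value. *Pgk1* (X chromosome, 106187100 to 106203699) shares 54.7% with genes that are not in the table used here.

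*Pklr* (chromosome 3, 89136142 to 89146784, plus strand) overlaps *Hcn3*, a channel gene on the minus strand (89146074 to 89160196), by 711 bases at the 3′ ends of both, and 21.1% of its subsequences occur in other genes of the table. *Hcn3* read 257 and 226 in fasted control livers, 2597 and 1744 with sucrose and 887 and 1533 with fructose, and 155 and 103, 593 and 879, and 397 and 460 in livers labelled MED13-LKO. It thus followed the same order of diets as *Pklr* in group means, at 5.75% to 18.3% of the value of *Pklr*. Over both genotypes *Hcn3* rose by 2.41 ± 0.18 (SE) with feeding (adjusted p = 4.75e-05). Under the MED13-LKO label *Hcn3* fell by 1.31 ± 0.17 over the diets (adjusted p = 0.000576). With equal sums that difference was −0.99 (adjusted p = 0.00133). The part of the overlap in the genotype difference of *Pklr* was not tested. The sources used here do not say whether strand was used in counting, and without it reads of the 2 genes in the overlap cannot be told apart. Adding *Hcn3* to *Pklr* changed no call of *Pklr*. With *Hcn3* at no more than 18.3% of *Pklr* and in the same order of diets, this sum could hardly have changed one. It does not show to which gene the reads of the overlap were assigned.

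**Figure D5:**
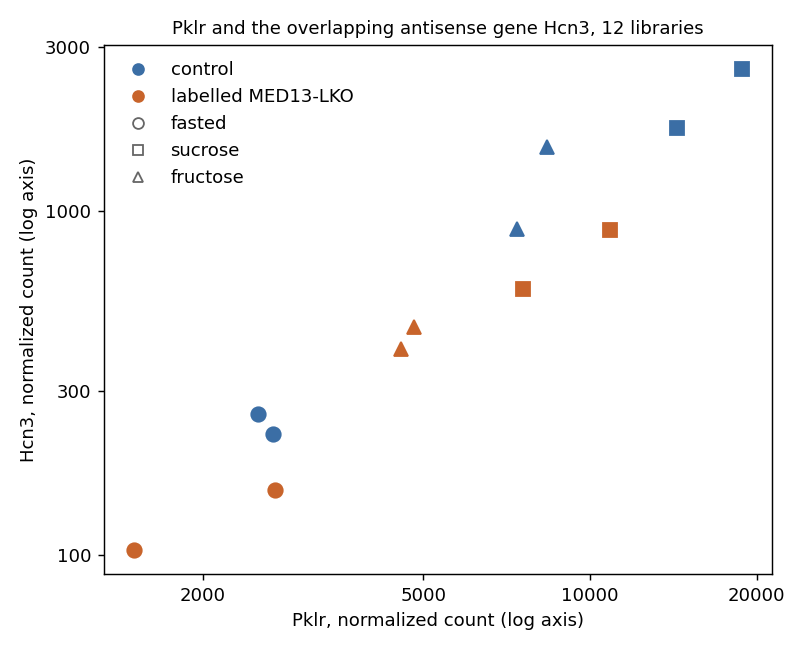
Normalized counts of Pklr (x axis, log scale) and Hcn3 (y axis, log scale) in 12 libraries, by genotype (colour) and diet (shape). Both are lowest in the fasted livers and highest in the 2 controls fed sucrose, at 18792 and 14368 for Pklr and 2597 and 1744 for Hcn3.

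The rest of the pathway was read from 4 lists of 43 genes, of which 39 were tested. Over both genotypes 6 rose with feeding and 7 fell, with a median log2 fold change of −0.05, where 21.8% of all genes passed (10.7% higher, 11% lower) with a median of −0.01. With equal sums 12 were called higher and 4 lower. Of 14 other glycolytic enzymes *Gpi1*, which interconverts glucose and fructose 6-phosphate, rose by 0.84 ± 0.11 (SE; adjusted p = 0.00065), *Pkm*, the other pyruvate kinase gene, rose by 0.33, and *Pfkm*, the muscle phosphofructokinase subunit, fell by 0.22. *Gpi1* had 2874 and 2896 in fasted control livers, 9156 and 6284 with sucrose and 4912 and 4808 with fructose, the same order of diets as *Pklr*. Of 2 other fructose 2,6-bisphosphate enzymes *Tigar*, which removes this activator, rose by 0.79 ± 0.08 (adjusted p = 0.00013), and *Pfkfb2*, the heart form, fell by 0.41.

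Of 17 other genes of pyruvate and lactate handling, *Pdhb*, a subunit of pyruvate dehydrogenase, rose by 0.58 ± 0.05 (SE; adjusted p = 9.9e-05) and *Ldha*, of lactate dehydrogenase, by 0.28. *Pdk4*, the kinase known for its rise in fasting, fell by 1.33 ± 0.23 (adjusted p = 0.0033), as *Pdk2* did, while *Pdp2*, a phosphatase that reverses their action, fell by 0.54 and *Pdpr*, which regulates such phosphatases, by 0.31. *Pdk4* stood at 199 to 419 in the 4 fasted livers and at 62 to 185 in the 8 fed ones. Of 6 transporters *Slc16a1*, a lactate and pyruvate carrier, rose by 0.62, and the glucose transporters *Slc2a1* and *Slc2a8* fell by 0.90 and 0.42. With equal sums *Pfkm*, *Pdpr* and *Slc2a8* were no longer called.

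Between the genotypes over the diets 3 of the 39 rose and 7 fell, where 25.3% of all genes passed (12.1% higher, 13.2% lower). With equal sums 23 were called higher and 2 lower. *Slc2a2*, the main glucose transporter of hepatocytes, fell by 1.19 ± 0.13 (SE; adjusted p = 0.000156), and its values in livers labelled MED13-LKO (2868 to 7143) lay below all controls (9222 to 13950). *Pdk1* fell by 0.55, *Pdhb* by 0.40, *Pfkfb2* by 0.38, *Gpi1* by 0.34, *Tpi1* by 0.24 and *Ldhd* by 0.17, while *Slc16a1* rose by 0.62, *Pfkm* by 0.41 and *Ldha* by 0.34. With equal sums the falls of *Slc2a2* (−0.874) and *Pdk1* (−0.233) and the 3 rises were kept, *Gpi1*, *Pdhb* and *Pfkfb2* were no longer called, *Tpi1* changed sign without a call (0.0718, adjusted p = 0.132), and *Ldhd* was called higher (0.144, adjusted p = 0.0267). The phosphofructokinase subunits *Pfkl* and *Pfkm* were both higher in the libraries labelled MED13-LKO under each scaling. Equal sums moved the median of all genes up by 0.314, so that setting could hardly have ended a rise.

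The genes most like each member over the 12 libraries, by Pearson's r of log2 values, are given as a description, since libraries of a group share diet and genotype. *Pklr* was most like *Acaca* (r = 0.972) and *Elovl6* (r = 0.968), an enzyme of fatty acid synthesis and a fatty acid elongase. *Eno1* was most like *Tkfc* (r = 0.983), the triokinase of fructose breakdown, and *Hcn3* (r = 0.982). *Gapdh* was most like *Mrpl15* (r = 0.976) and *Map2k3* (r = 0.965), *Pgk1* like *Cnih1* (r = 0.978) and *Rnf181* (r = 0.951), and *Pdk2* had an r of 0.956 with *Mtdh*. The highest r was lower for *Pfkfb1* (*Pid1*, 0.934; *Zfp119b*, 0.931), *Pfkl* (*H2-D1*, 0.921; *Amigo1*, 0.917), *Pfkfb3* (*Gm4788*, 0.894; *Gadd45g*, 0.892) and *Gckr* (*Slc35d1*, 0.88; *Dmap1*, 0.856). Among the 9 genes *Eno1* and *Pklr* had an r of 0.946, *Gapdh* and *Pgk1* one of 0.902, and *Pfkl* and *Gapdh* one of −0.823.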

How the data were processed

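Liver RNA-seq libraries of 12 mice, 2 in each of 6 groups named by the sample titles, were used. The authors trimmed reads with Trim Galore 0.6.5, estimated transcript counts with kallisto 0.46.0 and normalized them with DESeq2 1.24.0 (versions and the build mm10 from the submitters' processing notes); the transcript set is not given in the sources used here. The deposited signal values are normalized counts, not whole reads, so no count test was run.

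Log2(normalized count + 1) was fitted with limma 3.58.1 under R 4.3.3 (6 groups, eBayes with trend) for genes whose mean was at least 10 (12366 in all), with Benjamini-Hochberg adjustment over these genes, and the fit was checked on simulated data. In the simulated data a log2 change of 1 was recovered for 36% of changed genes in the sucrose interaction and 54% with sucrose in controls. The share was 74% for feeding over both genotypes and 82% for the genotypes over the diets. Of the calls 5.06% to 7.53% were false. Replicate numbers were not used as a block, since no source says that they mark shared handling. Names came from GENCODE M21 for 16212 identifiers, as did the 31-base subsequences and positions (GRCm38), and promoters from RefSeq. Figures used Python 3.11.15 and matplotlib 3.10.9. The genes, lists and marker genes were chosen with earlier results of these data known. Besides the 9 genes, the text names *Med13*, list members that were called (at most 3 per list and direction), the 2 genes most correlated with each member (1 is not reported here), copies with a mean of at least 10, and *Hcn3*, which was chosen after its values were seen. Alternatives were pseudocounts of 0.1 and 10, no filter, equal 75th percentiles, a replicate block, only the compared groups, members summed with copies, and each library left out; equal sums, *Pklr* summed with *Hcn3* and a crossed block were added after seeing the data.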

Additional observations from a re-analysis of the deposited data

How the results depend on the processing

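The members called in each comparison kept their number within 1.5 times under the pseudocounts of 0.1 and 10, with no filter, with copies summed, with *Hcn3* summed into *Pklr* and with the replicate block. With only the compared groups, 1 member was called for fructose in controls, 1 for fructose in livers labelled MED13-LKO and 0 for the genotypes with sucrose. With equal 75th percentiles 1 was called for the genotypes with sucrose. With equal sums the genotype comparisons gave 2 (fasted), 1 (sucrose), 3 (fructose) and 2 (mean of diets), *Pgk1* reversed to 0.0947, *Tpi1* to 0.0718 and *Ldhd* to 0.1444 over the mean of diets, and the pathway genes called became 12 higher and 4 lower with feeding and 23 higher and 2 lower between the genotypes. Equal sums moved the share of called genes that were higher from 47.7% to 94.6% over the mean of diets (45.9% to 94.4% fasted, 44.8% to 92.4% sucrose, 48.7% to 93.5% fructose), and in the feeding comparisons from 49.3% to 76.8% over both genotypes, 56.6% to 79.1% and 49.9% to 80.4% in controls, and 39.1% to 59.2% and 45.1% to 70.6% in livers labelled MED13-LKO; equal 75th percentiles moved 39.1% to 50.7% for sucrose in the latter. The cause was not tested. Leaving out 1 library gave 2 to 2 members called for sucrose and 0 to 3 for fructose in controls, 1 to 3 and 0 to 4 in livers labelled MED13-LKO, 3 to 6 over both genotypes, 0 to 2 (fasted), 0 to 3 (sucrose), 0 to 2 (fructose) and 5 to 7 (mean of diets) between genotypes, and 0 to 0 between sugars and for the interactions. Leaving out a library leaves its group with 1 mouse, assumed to vary like the others. Libraries with the same number in the sample titles did not deviate together (correlations of −0.142 to 0.0522). The column names number the fasted libraries 1 and 2 and the fed ones 2 and 3, so in the feeding comparisons they share 1 number only, and that pairing was not run. With the replicate block 2 members were called for sucrose in controls, 2 for fructose, 2 and 3 in livers labelled MED13-LKO, 5 over both genotypes and 6 over the mean of diets; *Pdk2* and *Pfkfb1* in the feeding comparisons lost their call narrowly (adjusted p from 0.0572 to 0.0648). With crossed numbers the genotypes with fructose gave 1, as with the block. With 2 mice a group, changes within the spread of 2 mice could not be seen.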
